A study of Mus musculus with 6 samples.

Results

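The integrin chains of leukocytes were followed here as 10 genes chosen by symbol, namely Itgal, Itgam, Itgax, Itgb2, Itga4, Itgb7, Itgb1, Itgav, Itgb3 and Itgb8, out of 23420 genes in the count table. All 10 were found in the table. They were picked by name, with earlier results of these data known. The samples were splenic B lymphocytes of Ahr+/+ and Ahr-/- mice on a background labelled C57Bl/6J, with 3 samples of each genotype that the study describes as coming from separate mice. Cells of both genotypes were kept in culture for 8 h with an antibody against IgM (10 µg/ml), which engages the B-cell receptor, and with the cytokine IL-4 (20 ng/ml). For the final 4 h both genotypes also received FICZ (250 nM), a tryptophan photoproduct that binds the aryl hydrocarbon receptor (AhR). No unstimulated or FICZ-free samples were analysed here, so each difference below is one between genotypes after stimulation with ligand present. The Ahr-/- mice lack AhR in every cell and not only in B cells, and the B cells were enriched with an isolation kit that leaves some other cells.

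Integrins are cell surface receptors made of an α chain and a β chain, which reach the surface only as a pair. They bind counter-receptors on other cells or proteins of the extracellular matrix, and signals from inside the cell, such as those of the B-cell receptor, switch them to a high-affinity state through talin and kindlin. On splenic B cells, LFA-1 (the products of Itgal and Itgb2, binding ICAM-1) and VLA-4 (Itga4 and Itgb1, binding VCAM-1 and fibronectin) hold cells in the marginal zone and support contact with cells that present antigen, while α4β7 (Itga4 and Itgb7) serves homing to the gut.

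Sequenced depth was between 22095096 and 53648787 counts a library. The deleted gene itself was lower in all Ahr-/- libraries but was still counted, at 12682, 12892 and 13953 normalised read counts in Ahr+/+ and 8856, 8949 and 9717 in Ahr-/- cells, a log2 fold change of -0.52 (SE 0.047, adjusted p = 7.06e-06 by edgeR's quasi-likelihood test with Benjamini-Hochberg adjustment). The count covers the whole gene and does not show the deleted part alone. Normalised read counts are raw counts scaled for library size and composition to the mean library. Markers of B cells were counted in all libraries, with Cd79a, Cd79b, Ms4a1 and Pax5 higher and Blnk and Ebf1 lower in Ahr-/- cells by the same test. Cd79b, a signalling chain of the B-cell receptor, was at 22776, 22341 and 20668 normalised read counts in Ahr+/+ and at 28192, 27192 and 28583 in Ahr-/- libraries.

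Of the 10 integrin genes, 5 were higher in Ahr-/- cells (Itgal, Itgb2, Itgax, Itgb1 and Itgb3), 2 were lower (Itgav and Itgb7), 2 did not pass the test (Itgam and Itga4), and Itgb8 had too few counts to be tested. The 7 genes past the threshold of an adjusted p under 0.05 made up 77.8% of the 9 tested, where 17.9% of all 13682 genes tested passed in either direction, 9.79% as higher and 8.13% as lower. The libraries of both genotypes did not overlap for those same 7 genes, against 33.5% of all genes tested. The median log2 fold change was 0.28 over the 9 tested integrin genes and 0.00 over all genes tested. Most of the changes were small, between 1.18-fold and 1.34-fold for Itgb2, Itgb3, Itgb1 and Itgal, and the rise of Itgax was larger, at 2.09-fold. Summed over the 10 genes, normalised read counts ran from 24037 to 24284 in Ahr+/+ and from 26547 to 27445 in Ahr-/- libraries. Since these are bulk samples, a change in the share of cells that carry an mRNA and a change in the amount per cell cannot be told apart. For each of the 7 genes the exact two-sided permutation test over samples gave p = 0.1, the smallest that 3 samples against 3 allow.

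**Figure D1:**
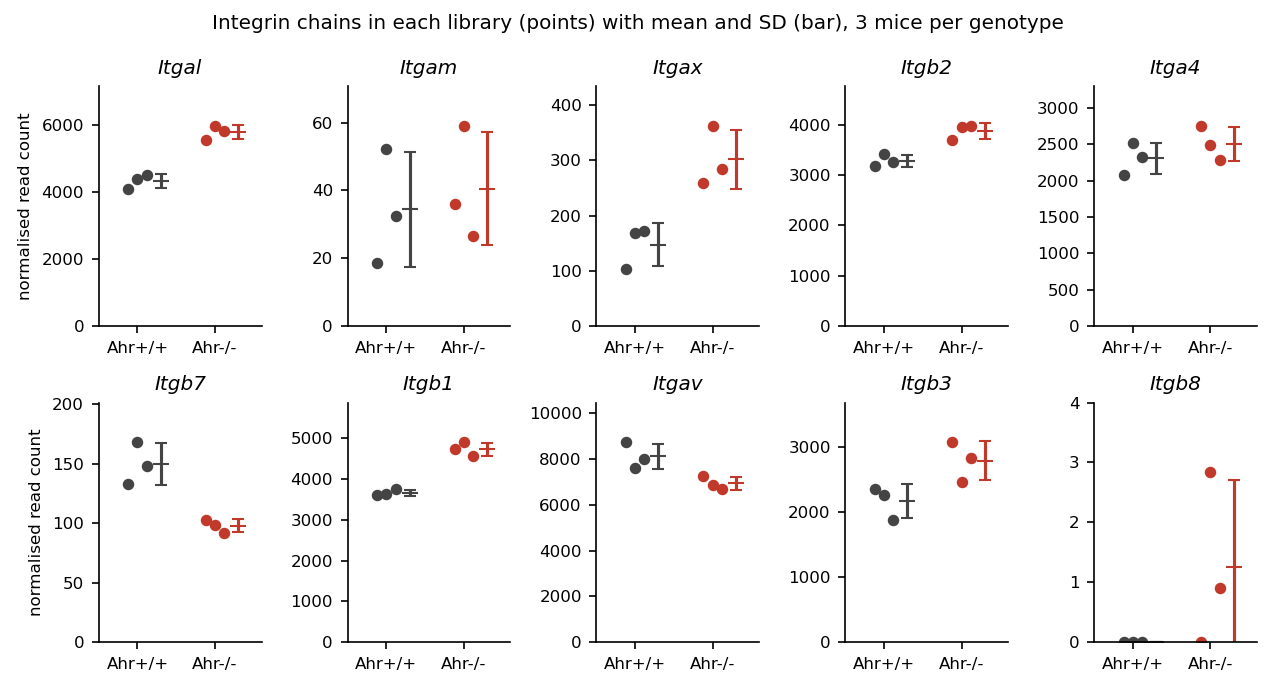
Normalised read counts of the integrin genes, 1 panel a gene, with 1 point for each of the 3 Ahr+/+ and 3 Ahr-/- libraries and the mean ± SD of each genotype. The genotypes separate without overlap for 7 genes, upwards in Ahr-/- cells for Itgal, Itgb2, Itgax, Itgb1 and Itgb3 and downwards for Itgav and Itgb7, while Itga4 and Itgam overlap and Itgb8 lies near 0.

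The α chain genes that pair with β2 lie on chromosome 7 of the mouse genome (GRCm38), with Itgal at 127296260 to 127335138 and, further along on the same strand, Itgam at 128062640 to 128118491, Itgax at 128129547 to 128150657 and Itgad at 128154376 to 128223816. Their common β chain, Itgb2, lies on chromosome 10 at 77530252 to 77565708. These β2 integrins are restricted to leukocytes.

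Itgal encodes CD11a, the α chain of LFA-1. It was counted at 4088, 4381 and 4491 normalised read counts in Ahr+/+ and at 5561, 5965 and 5822 in Ahr-/- cells. Every Ahr-/- library was above every Ahr+/+ library, and the means, 4320.0 ± 208 and 5782 ± 205 (SD, n = 3 each), differed 1.34-fold. The log2 fold change was 0.42 (SE 0.045, adjusted p = 2.8e-05 by edgeR's quasi-likelihood test), and it stayed between 0.38 and 0.45 when any 1 library was left out.

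Itgb2, the β chain that all of these α chains need, was higher as well, with a smaller log2 fold change. Its normalised read counts were 3181, 3409 and 3257 in Ahr+/+ and 3693, 3960.2 and 3972 in Ahr-/- cells, with means of 3282 ± 116 and 3875 ± 157 (SD, n = 3). The genotypes did not overlap, and the log2 fold change was 0.24 (SE 0.043, adjusted p = 0.00169 by edgeR's quasi-likelihood test). The number of Itgal counts for each Itgb2 count was 1.32 ± 0.0542 in Ahr+/+ and 1.49 ± 0.0231 in Ahr-/- cells. This ratio and the other ratios of chains given below were picked after the values of the single genes were seen and are given as descriptions.

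Itgax, which encodes CD11c, the chain best known from dendritic cells and also carried by some activated B cells, rose more than any other of the 10 genes. Its normalised read counts were 103.0, 168.0 and 172 in Ahr+/+ and 259, 363 and 284 in Ahr-/- cells. The lowest Ahr-/- library was above the highest Ahr+/+ library, and the first Ahr+/+ library was the lowest of all. The log2 fold change of 1.06 (SE 0.18, adjusted p = 0.00103 by edgeR's quasi-likelihood test) ranged from 0.85 to 1.18 when 1 library was left out.

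Itgam, which encodes CD11b, the α chain of the complement receptor Mac-1 found on myeloid cells and on B-1 cells, did not pass the test. Its normalised read counts were 18.5, 52.3 and 32.6 in Ahr+/+ and 36.0, 59.0 and 26.4 in Ahr-/- cells, so that the genotypes overlapped. The difference was 0.28 on the log2 scale with a 95% interval from -0.52 to 1.08 (adjusted p = 0.672 by edgeR's quasi-likelihood test). It turned to -0.03 without the first Ahr+/+ library and to -0.18 without the second Ahr-/- library. In addition, 68.7% of the exon bases of Itgam are shared with the gene model Gm49368 on the same strand, and reads there may have been set aside or split in counting.

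Per kilobase of exon, where levels of different genes may be set side by side, Itgal made up nearly all of the α chain mRNA that can pair with β2. Its share among Itgal, Itgax, Itgam and Itgad was 94.3% ± 1.40 in Ahr+/+ and 92.3% ± 1.12 in Ahr-/- cells (SD, n = 3). The share of Itgax was 4.37% ± 0.923 in Ahr+/+ and 6.57% ± 0.877 in Ahr-/- cells, with no overlap between genotypes. Itgam held 0.970% ± 0.449 and 0.839% ± 0.316, and Itgad, the α chain of a macrophage integrin, 0.410% ± 0.157 and 0.263% ± 0.0621.

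Because Itgax is abundant in dendritic cells and Itgam in myeloid cells, markers of the other leukocytes that the preparation could hold were measured in the same libraries. Of 10 plasmacytoid dendritic cell markers tested, 8 were higher (80.0%, against 9.79% of all genes tested) and none was lower in Ahr-/- cells by edgeR's quasi-likelihood test, and their summed level was 5567 to 6436 normalised read counts in Ahr+/+ and 9031 to 10732 in Ahr-/- libraries. Without Ly6d, which B cells also express, the sums were 4020.3 to 4628 and 5194 to 6235. Most of this remainder was Bst2, at 2127 ± 204 in Ahr+/+ and 2498 ± 512 in Ahr-/- cells, and Pacsin1, at 1248 ± 93.8 and 1685 ± 46.9. Bst2 did not pass the test, and neither sum stands for the less abundant markers of the list. Siglech, which marks these cells, was at 57.3, 52.3 and 60.6 in Ahr+/+ and at 300.3, 236 and 273 in Ahr-/- libraries. Of 8 conventional dendritic cell markers tested, 4 were higher (Cd209a, Clec9a, Clec10a and Sirpa) and 1, Zbtb46, was lower. This was 62.5% in all, against 17.9% of all genes tested. Flt3, Xcr1 and Batf3 did not pass the test, with log2 differences of -0.20, -0.26 and 0.75. The summed level of this list was 1851 to 2132 in Ahr+/+ and 2134 to 2323 in Ahr-/- libraries, but without Sirpa, its most abundant gene, 721 to 767 and 606 to 710.2. Most of that remainder was Zbtb46, at 552 ± 23.9 in Ahr+/+ and 418 ± 23.2 in Ahr-/- cells, so the second sum mainly followed 1 gene. Clec9a and Xcr1 both mark cross-presenting dendritic cells, and Clec9a was at 5.83, 5.03 and 6.74 in Ahr+/+ and at 17.2, 28.4 and 16.4 in Ahr-/- libraries, where Xcr1 was at 17.5, 17.1 and 20.2 and at 20.6, 12.8 and 14.6. The plasmacytoid markers thus moved in the direction of Itgax and the conventional ones in both directions, and their part in its rise was not tested.

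Markers of monocytes and macrophages summed to 1264 to 1649 normalised read counts in Ahr+/+ and to 736 to 1295 in Ahr-/- libraries. Of 11 tested, 2 were higher (Cd14 and Marco) and 1 was lower (Emr1), 27.3% in all against 17.9% of all genes tested. Vsig4 was at 0 in all libraries. Emr1, the macrophage antigen F4/80, went from 649.7 ± 14.7 to 54.1 ± 16.1, and without it the sums were 610.0 to 987 and 700.2 to 1232. Of 7 neutrophil markers tested, 1 was lower (Mmp8) and none was higher, 14.3% in all against 17.9% of all genes tested. Their sums were 65.1 to 106 in Ahr+/+ and 24.6 to 181 in Ahr-/- libraries. Left out of the fit, the third Ahr-/- library changed these counts most, to 7 monocyte and macrophage markers and 4 neutrophil markers past the threshold. Markers of B-1 cells, which carry CD11b in body cavities, summed to 1769.7 to 2046 in Ahr+/+ and to 1783 to 1871 in Ahr-/- libraries. Cd5 was higher and Bhlhe41 was lower, 33.3% of the 6 tested, against 17.9% of all genes tested.

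**Figure D2:**
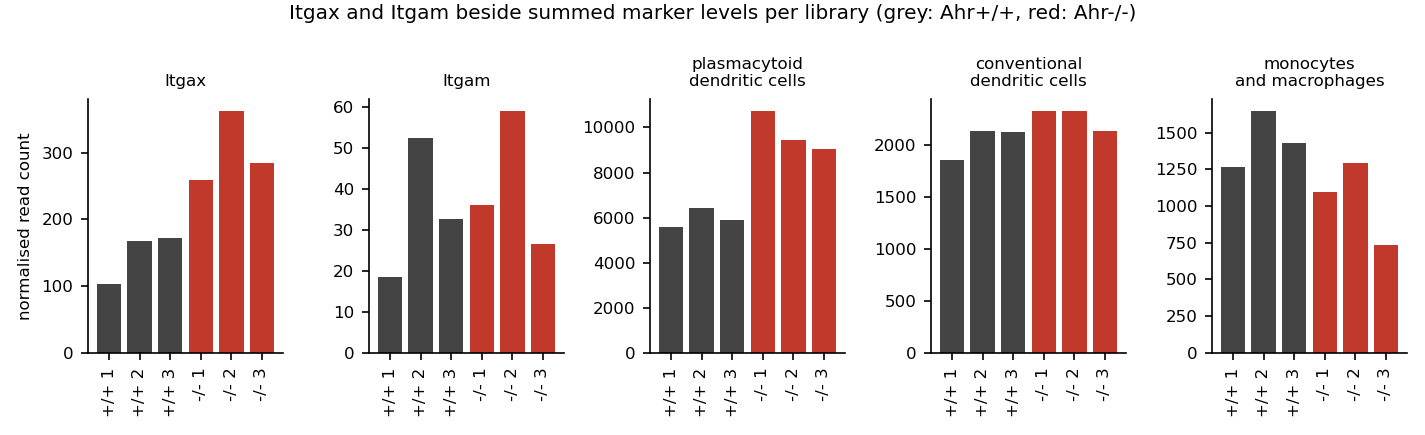
Bars of normalised read counts from 0 in each of the 6 libraries (grey Ahr+/+, red Ahr-/-), for Itgax, Itgam and the summed markers of plasmacytoid dendritic cells, conventional dendritic cells, and monocytes and macrophages. The plasmacytoid sums are higher in all Ahr-/- libraries (9031 to 10732) than in all Ahr+/+ libraries (5567 to 6436), as Itgax is, while Itgam and the monocyte and macrophage sums overlap between genotypes.

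The α4 chain gene Itga4 pairs with β1 to form VLA-4 and with β7 to form the gut-homing receptor that binds MAdCAM-1. Itga4 lies on chromosome 2 at 79255426 to 79333123, Itgb1 on chromosome 8 at 128685654 to 128733200 and Itgb7 on chromosome 15 at 102215995 to 102231944. Of the 3 genes, Itgb1 was higher in Ahr-/- cells, Itgb7 was lower and Itga4 did not pass the test. Itga4 was counted at 2081, 2513 and 2322 normalised read counts in Ahr+/+ and at 2751, 2487 and 2280.4 in Ahr-/- cells. These values overlapped, and the log2 difference was 0.11 with a 95% interval from -0.04 to 0.27 (adjusted p = 0.334 by edgeR's quasi-likelihood test). Exons of Itga4 share 8.04% of their bases with Cerkl on the opposite strand.

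Itgb1, the most widely shared β chain, rose with little spread. Its normalised read counts were 3609, 3624 and 3743 in Ahr+/+ and 4719.8, 4884 and 4563 in Ahr-/- cells, with means of 3659 ± 73.4 and 4722 ± 161 (SD, n = 3). The difference was 1.29-fold, a log2 fold change of 0.37 (SE 0.040, adjusted p = 3.13e-05 by edgeR's quasi-likelihood test), and it lay between 0.34 and 0.39 with any 1 library left out.

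Itgb7 fell further than any other of the 10 genes. It was counted at 133, 168 and 148 normalised read counts in Ahr+/+ and at 103.0, 98.8 and 92.1 in Ahr-/- cells. All Ahr-/- libraries were below all Ahr+/+ libraries and close to each other. The log2 fold change was -0.62 (SE 0.13, adjusted p = 0.0063 by edgeR's quasi-likelihood test), with a range of -0.70 to -0.53 when 1 library was left out. For each Itgb7 count there were 15.4 ± 0.400 counts of Itga4 in Ahr+/+ and 25.5 ± 1.03 in Ahr-/- cells, 2 ranges without overlap. For each Itgb1 count there were 0.630 ± 0.0591 counts of Itga4 in Ahr+/+ and 0.531 ± 0.0455 in Ahr-/- cells, and these ranges overlapped.

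β7 has another partner, αE (Itgae, CD103), which binds E-cadherin and is known from intraepithelial T cells and from a subset of dendritic cells. Itgae, not among the 10 genes, was measured with the remaining integrin chains and was at 15.5, 22.1 and 21.3 normalised read counts in Ahr+/+ and at 72.1, 74.6 and 82.1 in Ahr-/- cells. It was thus 3.89-fold higher in Ahr-/- cells, a log2 fold change of 1.96 (SE 0.21, adjusted p = 2.48e-05 by edgeR's quasi-likelihood test), while its β chain was lower. The number of Itgae counts for each Itgb7 count went from 0.131 ± 0.0136 in Ahr+/+ to 0.782 ± 0.0983 in Ahr-/- cells (SD, n = 3), without overlap. The plasmacytoid dendritic cell markers given beside Itgax moved in the direction of Itgae and the conventional ones in both directions. Of 9 T-cell markers, 2 were lower (Cd3e and Cd28), none was higher and 7 did not pass the test (22.2% lower, against 8.13% of all genes tested), with sums of 307 to 444 normalised read counts in Ahr+/+ and 287 to 302 in Ahr-/- libraries. The part of these cells in the rise of Itgae was not tested.

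The αv chain pairs with β1, β3 and β8, among others, to bind proteins with an RGD motif such as vitronectin, osteopontin and the latency peptide of TGF-β. Itgav lies on chromosome 2 at 83724397 to 83806916, Itgb3 on chromosome 11 at 104608000 to 104670476 and Itgb8 on chromosome 12 at 119158022 to 119238802. Itgav had the most counts of the 10 genes, with 8708, 7599 and 7995 normalised read counts in Ahr+/+ and 7251, 6851 and 6678 in Ahr-/- cells. The genotypes came close without overlap, and the log2 fold change was -0.23 (SE 0.051, adjusted p = 0.00802 by edgeR's quasi-likelihood test), with a range of -0.27 to -0.17 when 1 library was left out. A gene model on the opposite strand, Gm13684, shares 5.90% of its exon bases.

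Its partner Itgb3 moved the other way. Normalised read counts of Itgb3 were 2362, 2269 and 1876 in Ahr+/+ and 3070.4, 2469 and 2829 in Ahr-/- cells, and the lowest Ahr-/- library was just above the highest Ahr+/+ library. The log2 fold change was 0.35 (SE 0.086, adjusted p = 0.0125 by edgeR's quasi-likelihood test). This was the least secure of the 7 calls, since a robust fit of the same model gave an adjusted p of 0.127. Itgb3 is also abundant in platelets, and the 8 platelet and megakaryocyte markers summed to 17.1 to 29.2 normalised read counts in Ahr+/+ and 14.6 to 30.9 in Ahr-/- libraries, with Gp6 at 0 in all and none of 6 tested past the threshold.

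Itgav was lower while Itgb3 and Itgb1 were higher, and another β partner, Itgb5, did not pass the test at no more than 12.1 normalised read counts in any library. There were 3.77 ± 0.462 counts of Itgav for each count of Itgb3 in Ahr+/+ and 2.50 ± 0.239 in Ahr-/- cells (SD, n = 3). Relative to Itgb1 the same numbers were 2.22 ± 0.172 and 1.47 ± 0.0670. Neither pair of ranges overlapped. Itgb8, whose product with αv activates TGF-β, had no raw count in Ahr+/+ cells and 0, 4 and 1 raw counts in the Ahr-/- samples. With 5 counts in all it was below the minimum of 10 for testing. A limit of 3 counts, used here for a count of 0, corresponds to 2.91 to 5.15 normalised read counts in the libraries without a count of Itgb8. No difference was detectable at this depth.

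**Figure D3:**
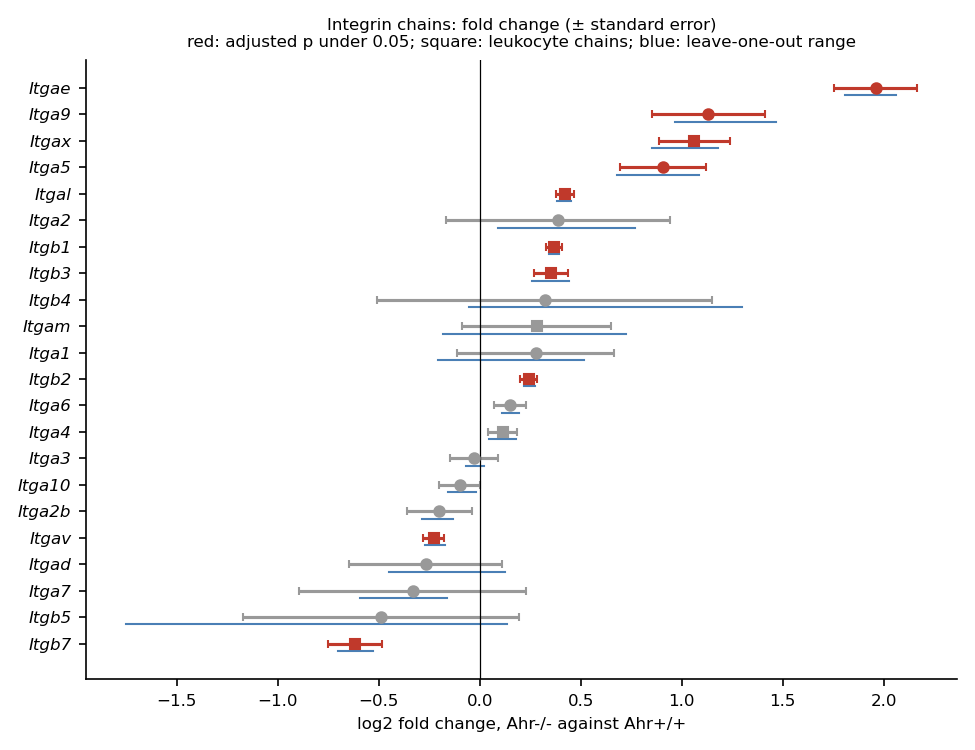
Log2 fold change of Ahr-/- over Ahr+/+ cells for each tested integrin chain, in order of size, with bars of 1 standard error, squares for the leukocyte chains, circles for the remaining chains, red for genes past the threshold and a blue line for the range when 1 library was left out. Itgae (1.96), Itga9 (1.13) and Itgax (1.06) lie furthest above 0 and Itgb7 (-0.62) furthest below.

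In order to place the 10 genes within the whole family, the other 17 integrin chains of the mouse were counted as well. Of these, 2 had no count in any library (Itga8 and Itga11), 2 more were below the minimum (Itgb6 and Itgb2l), and of the 13 tested 3 were higher (Itgae, Itga9 and Itga5) and none was lower, a share of 23.1% against 17.9% of all genes tested. Itga5, the fibronectin receptor chain that pairs with β1, was at 50.5, 73.4 and 55.0 normalised read counts in Ahr+/+ and at 109.8, 139 and 84.8 in Ahr-/- cells, a log2 fold change of 0.91 (SE 0.21, adjusted p = 0.00956 by edgeR's quasi-likelihood test). Itga9, also a partner of β1, was at 23.3, 14.1 and 12.4 in Ahr+/+ and at 34.3, 41.9 and 32.8 in Ahr-/- cells, a log2 fold change of 1.13 (SE 0.28, adjusted p = 0.0139 by the same test). Neither call held without the second Ahr-/- library, where the adjusted p was 0.0689 for Itga5, and that of Itga9 was also lost without the second or the third Ahr+/+ library.

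The laminin receptor chain Itga6, a partner of β1, was at 322, 350.1 and 346 normalised read counts in Ahr+/+ and at 381, 357 and 395 in Ahr-/- cells, a log2 difference of 0.15 that did not pass the test (adjusted p = 0.226 by edgeR's quasi-likelihood test). The other chains not past the threshold had log2 differences of -0.03 (Itga3), -0.10 (Itga10), -0.20 (Itga2b), -0.27 (Itgad), 0.28 (Itga1), 0.39 (Itga2), -0.33 (Itga7), 0.32 (Itgb4) and -0.49 (Itgb5).

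The order of the 10 genes by level per kilobase of exon was similar in both genotypes. In Ahr+/+ cells Itgb2 was highest at 1075 ± 38.0 normalised read counts per kilobase, followed by Itgb1 at 897 ± 18.0, Itgav at 754 ± 52.3 and Itgal at 658 ± 31.7 (SD, n = 3). Below these came Itgb3 at 368 ± 43.8, Itga4 at 165 ± 15.5, Itgb7 at 54.1 ± 6.33, Itgax at 30.7 ± 8.06 and Itgam at 6.86 ± 3.39. No 2 neighbours in this order overlapped. In Ahr-/- cells the order differed in 2 places. Itgal, at 880.3 ± 31.2, stood above Itgav, at 645 ± 27.4, and Itgax, at 62.9 ± 11.2, stood above Itgb7, at 35.4 ± 1.98. Per kilobase of the longest transcript instead, Itgav led in Ahr+/+ cells at 1148 ± 79.6 and overlapped with Itgb2 at 1105 ± 39.0.

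**Figure D4:**
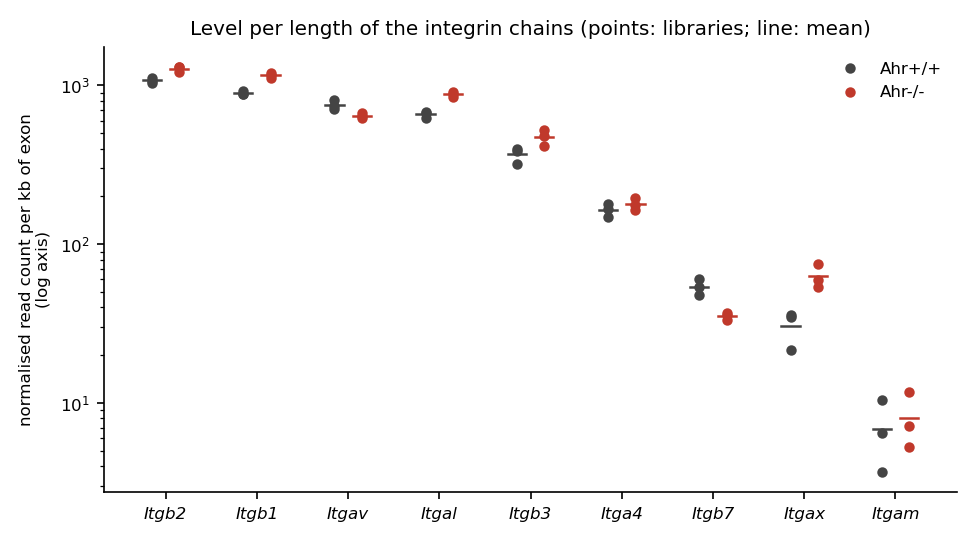
Normalised read counts per kilobase of exon for the integrin genes, on a log axis, with 1 point a library, a line at the mean and the genotypes side by side (grey Ahr+/+, red Ahr-/-), ordered by the level in Ahr+/+ cells and without Itgb8. Itgb2, Itgb1, Itgav and Itgal form the top of the order in both genotypes, and Itgax and Itgb7 exchange places, at 30.7 and 54.1 in Ahr+/+ and 62.9 and 35.4 in Ahr-/- cells.

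AhR binds DNA together with ARNT at the dioxin response element, whose core is GCGTG, and PU.1 is a leukocyte factor known for its sites with the core GAGGAA in promoters of myeloid integrin genes. Both cores were looked for on both strands (as CACGC and TTCCTC on the other strand) in the 250 bases before the start of each gene in RefSeq (GRCm38.p6), where a window was at hand for 7 of the 10 genes, all but Itgal, Itgb2 and Itgb3. The promoters of the genes with the largest rise and the largest fall are shown 5′ to 3′ on the strand of the gene, with the core of the dioxin response element in capitals.
Itgax, chr7:128129300-128129549, plus strand: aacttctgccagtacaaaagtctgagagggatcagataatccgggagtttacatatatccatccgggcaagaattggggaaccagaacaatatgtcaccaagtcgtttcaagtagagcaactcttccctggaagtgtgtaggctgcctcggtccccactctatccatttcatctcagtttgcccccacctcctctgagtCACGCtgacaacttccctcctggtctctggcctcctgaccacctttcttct
Itgb7, chr15:102231936-102232185, minus strand: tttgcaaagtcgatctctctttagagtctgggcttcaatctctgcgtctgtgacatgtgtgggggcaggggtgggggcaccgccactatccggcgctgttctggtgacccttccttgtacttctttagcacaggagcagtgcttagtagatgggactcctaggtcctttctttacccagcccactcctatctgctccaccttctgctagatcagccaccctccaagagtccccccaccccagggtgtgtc
The core of the dioxin response element was present in the Itgax window alone among the 7, once, on the other strand, from 51 to 47 bases before the start. It was absent from the windows of Itgb7, Itga4, Itgam, Itgav, Itgb1 and Itgb8, and 28.2% of all 32851 windows of this length held it at least once. The PU.1 core was present in the windows of Itgam, Itgav and Itgb1 and absent from that of Itgax, with a share of 23.3% over all windows. These are matches of letters only, and binding was not measured.

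Integrins are switched on from inside the cell, and the genes of this step were examined next. Of 27 activation and adaptor genes tested, 8 were higher and 2 were lower, 37.0% in all against 17.9% of all genes tested, with a median log2 fold change of 0.03. For the core of the machinery, the log2 difference was -0.03 for Tln1, the talin that opens the integrin (adjusted p = 0.71 by edgeR's quasi-likelihood test), and -0.12 for Fermt3, the kindlin of blood cells (adjusted p = 0.18). Rap1b, the small GTPase that recruits talin after B-cell receptor engagement, fell by 0.24 on the log2 scale (SE 0.042, adjusted p = 0.0013), from 24936 ± 1126 to 21074 ± 823 normalised read counts. Pxn, which encodes the adaptor paxillin, also fell, by 0.26 (SE 0.050). The 3 genes that rose most were Parvb, a parvin that links integrins to actin, by 0.77 (SE 0.095), Vcl, which encodes vinculin, by 0.45 (SE 0.048), and Skap2, an adaptor acting upstream of integrin activation, by 0.28 (SE 0.047). Exons of Vcl share 25.5% of their bases with Ap3m1 on the opposite strand.

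Among genes for integrin ligands, 7 of 15 tested were higher (46.7%, against 9.79% of all genes tested) and none was lower, with a median log2 fold change of 0.54. Icam1, the main ligand of LFA-1, was counted at 1576, 1612 and 1612 normalised read counts in Ahr+/+ and at 2066, 2122 and 2215 in Ahr-/- cells, a log2 fold change of 0.42 (SE 0.041, adjusted p = 1.3e-05 by edgeR's quasi-likelihood test). The gene for the other side of this contact, Itgal, had a log2 fold change of 0.42 as well. A gene model on the opposite strand, Gm47079, shares 11.7% of the exon bases of Icam1. Vcam1, the ligand of VLA-4, was at 9.71, 34.2 and 20.2 in Ahr+/+ and at 78.9, 54.7 and 25.5 in Ahr-/- cells, values that overlapped and did not pass the test (adjusted p = 0.071).

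The 3 ligand genes with the largest rise were Fn1, Vwf and Cdh1. Fn1, which encodes fibronectin, was at 41.8, 106 and 91.0 normalised read counts in Ahr+/+ and at 333, 515 and 177 in Ahr-/- cells, a log2 fold change of 2.13 (SE 0.37, adjusted p = 0.0013 by edgeR's quasi-likelihood test) that a robust fit did not call (adjusted p = 0.094). Lyz2 and Csf1r, markers of monocytes and macrophages that did not pass the test, were likewise lowest in the first Ahr+/+ library and highest in the second Ahr-/- library within their genotypes. Lyz2 was at 58.3, 201 and 130.3 in Ahr+/+ and at 187, 359.7 and 80.2 in Ahr-/- cells. Other markers of that list differed, with Cd68, Cd14, Ly6c2, Marco, C1qb and Emr1 highest in the first Ahr-/- library, and Emr1 lower in Ahr-/- than in Ahr+/+ cells. The part of monocytes and macrophages in the rise of Fn1 was not tested. Cdh1, the E-cadherin bound by αEβ7, rose from 31.3 ± 6.26 to 91.5 ± 2.97 (log2 fold change 1.55, SE 0.19) and Vwf, which encodes von Willebrand factor, from 10.1 ± 3.96 to 28.9 ± 7.62 (log2 fold change 1.57, SE 0.33). Spp1, singled out after its values were seen, encodes osteopontin, a ligand of αv integrins, and was at 64.1, 68.4 and 69.6 in Ahr+/+ and at 196, 191 and 194 in Ahr-/- cells (log2 fold change 1.52, SE 0.12).

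Because αvβ8 and other αv integrins release active TGF-β, genes of that step were listed too. Of 17 tested, 6 were higher and 2 were lower, 47.1% in all against 17.9% of all genes tested, with a median log2 fold change of 0.00. The lower ones were Tgfb1, the main TGF-β of leukocytes, at 10444, 10393 and 9973 normalised read counts in Ahr+/+ and 6627, 6734 and 7230.4 in Ahr-/- cells (log2 fold change -0.58, SE 0.042, adjusted p = 8.55e-07 by edgeR's quasi-likelihood test), and Lrrc32, which encodes the surface anchor GARP that presents latent TGF-β to αv integrins (log2 fold change -0.68, SE 0.084). The receptor gene Tgfbr1 rose from 3841 ± 299 to 6246 ± 368 (log2 fold change 0.70, SE 0.058). Ltbp4, a matrix protein that binds latent TGF-β, rose by 0.72 (SE 0.15), and Tgfb3 by 0.43 (SE 0.14), a call with an adjusted p of 0.047 that was lost in 5 of the 6 fits without 1 library. Itgav and Tgfb1 were thus both lower in Ahr-/- cells, and Itgb8 was near 0 in both genotypes.

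Tetraspanins, which hold integrins in membrane clusters, and other adhesion receptors changed in 10 of 16 genes tested (62.5%, against 17.9% of all genes tested), 6 higher and 4 lower, with a median log2 fold change of 0.18. Cd44, the hyaluronan receptor, rose from 12847 ± 985 to 23903 ± 633 normalised read counts (log2 fold change 0.90, SE 0.050), and Siglecg, an inhibitory lectin of B cells, by 0.52 (SE 0.076). The tetraspanin gene Cd63 rose by 0.39 (SE 0.080), whereas Cd9, the tetraspanin of marginal zone and B-1 cells known to associate with β1 integrins, fell from 1371 ± 80.8 to 619 ± 120.3 (log2 fold change -1.17, SE 0.10). Cd24a fell by 0.58 (SE 0.055) and Pecam1, which encodes CD31, by 0.54 (SE 0.083). Changes in this list went in both directions, as they did among the 10 integrin genes.

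**Figure D5:**
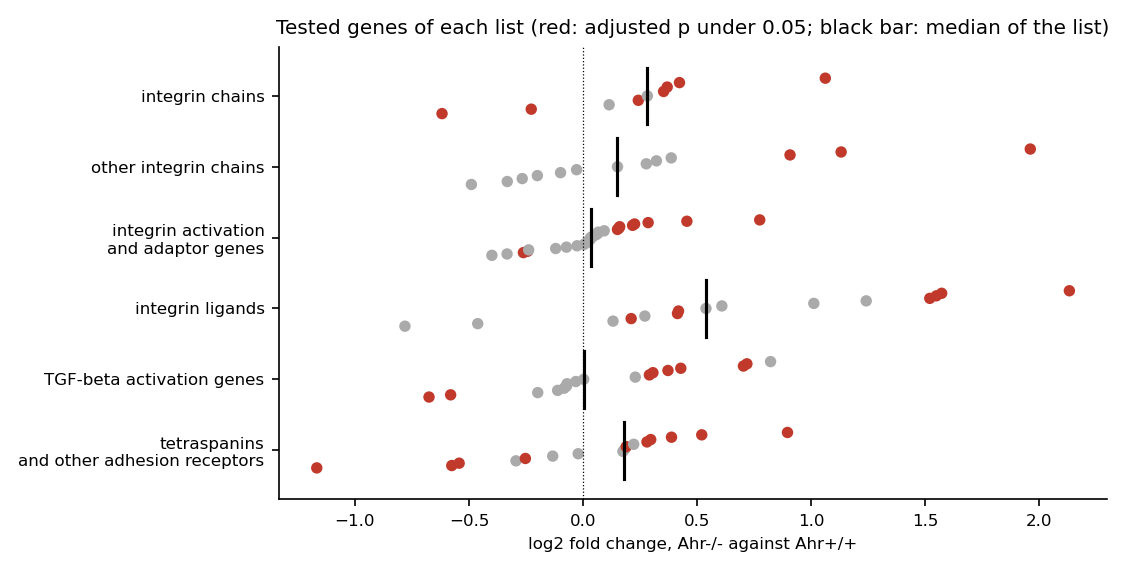
Log2 fold change of Ahr-/- over Ahr+/+ cells, 1 point for each tested gene of the leukocyte integrin chains, the other chains and the lists of activation genes, ligands, TGF-β genes and tetraspanins with other adhesion receptors, in red where past the threshold. The black bar in each row is the median of that list (0.28 for the leukocyte chains and 0.54 for ligands), the dotted line is at 0, and vertical offsets within a row carry no meaning.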

How the data were processed

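RNA of the 6 samples was made into TruSeq stranded mRNA libraries, per the labels. The table used holds raw counts of reads for each gene symbol as the authors deposited them. The submitters' processing notes name TopHat2, HTSeq, DESeq and the build mm10, which holds the same sequence coordinates as GRCm38, while the strand setting of the counting is not given in the sources used here. Another deposited table with scaled counts, group means, fold changes and p-values of the authors' own comparison was not used.

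The 13682 genes that reached 10 counts when all 6 libraries were summed went into the test of edgeR 4.0.16 (R 4.3.3), using TMM scaling, a prior count of 0.125, the quasi-likelihood test of genotype over all 6 libraries and Benjamini-Hochberg adjustment over all genes tested, with a threshold of 0.05. The standard error was the absolute log2 fold change over the square root of F, and 95% intervals used the total degrees of freedom of that test, prior included. Normalised read counts are counts divided by the effective library size relative to the mean library. Library totals of 22095096 to 53648787 set the precision, and a limit of 3 counts stands for a count of 0, which covers counting error only. No libraries agreed within sampling noise. Same-numbered samples of both genotypes did not deviate together (correlations from -0.02 to 0.11), so replicate numbers were not taken as pairs. P-values of this test set the difference between genotypes against the spread between these samples, moderated over all genes tested.

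Gene positions, exon lengths and overlaps came from GENCODE on GRCm38, and promoter sequences from RefSeq. The integrin genes and all lists were chosen with earlier results of these data known. Text names all members and all other detected integrin chains, Ahr, Icam1, Vcam1, Tln1, Fermt3, Rap1b and Tgfb1, and from each other list of integrin-related genes all genes past the threshold if at most 6 were, otherwise the 3 largest rises and the 3 largest falls with a mean of at least 10 in the higher genotype. Marker lists covered B cells, marginal zone B cells, B-1 cells, plasmacytoid and conventional dendritic cells, monocytes and macrophages, neutrophils, T cells, natural killer cells, platelets and megakaryocytes, basophils and mast cells, and erythroid cells, and single genes of these lists were picked for the text after their values were seen. Not every gene of the B-cell list is reported here. The scripts were tested on simulated data. Alternatives were DESeq2 size factors, library size alone, DESeq2's Wald test (DESeq2 1.42.0), a robust fit, a replicate block, 2 other count filters, a prior count of 2, a threshold of 0.01, another gene length and leaving out each library.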

Additional observations from a re-analysis of the deposited data

How the results depend on the processing

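The 7 calls among the 10 integrin genes kept their number and direction under DESeq2 size factors, library size alone, DESeq2's Wald test, both other count filters, a prior count of 2 and in each fit without 1 library, whereas Itgb3 was lost in the robust fit and at a threshold of 0.01. With the replicate number as a replicate block, 2304 genes changed over all genes tested against 2453 without it, 7 of the integrin genes did, and the call of Tgfb3 was lost (adjusted p = 0.083). At the threshold of 0.01, 1473 genes changed. Scaling by library size alone called 2540 genes, 63.8% of them higher against 54.6% with TMM. Without 1 library the number of genes changed ranged from 1664 to 2601, that of the integrin genes was 7 throughout, and that of the other chains ranged from 1 to 3, with 1 left without the second Ahr-/- library. Log2 differences of chains that did not pass the test changed sign without 1 library for Itgam (-0.18 to 0.73), Itgb4 (-0.053 to 1.30), Itga3 (-0.070 to 0.022), Itgad (-0.45 to 0.12), Itga1 (-0.21 to 0.51) and Itgb5 (-1.75 to 0.13), and the cause was not tested. Vcam1 passed the threshold with no filter (adjusted p = 0.020) and by DESeq2 (adjusted p = 0.026), and without the second Ahr+/+ or the third Ahr-/- library. The 5 counts of Itgb8 are too few for a test at this depth.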

Other observations

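Some further marker lists measured in the same libraries are given here beside those of the report, as values. Of 6 markers of marginal zone B cells, S1pr3 and Cr2 were higher in Ahr-/- cells and Dtx1 and Cd9 were lower, while Cd1d1 and Myof did not pass the test. The share past the threshold was 66.7%, against 17.9% of all genes tested. The list summed to 36756 to 40495.5 normalised read counts in Ahr+/+ and to 32417 to 35934 in Ahr-/- libraries. Without Dtx1 the order turned, with sums of 25369.5 to 30455 and 29498 to 32659 that overlapped. Dtx1, a regulator of Notch signalling in these cells, fell by 1.75 on the log2 scale (SE 0.058), from 10628 ± 703 to 3156 ± 206 (SD, n = 3). Of 8 natural killer cell markers, with sums of 293 to 408 in Ahr+/+ and 364 to 569 in Ahr-/- libraries, 2 were higher (Ncr1 and Klrb1c). This was 25% of those tested, against 9.79% of all genes tested. Neither call was secure, since no marker of this list passed without the first or the third Ahr+/+ library or without the first or the second Ahr-/- library, 1 passed without the second Ahr+/+ library, and 3 passed without the third Ahr-/- library. Cpa3, a protease of mast cells and basophils, was the 1 gene past the threshold of 6 tested in its list (16.7%, against 17.9% of all genes tested). Its level was 13.7 ± 2.23 in Ahr+/+ and 39.1 ± 1.27 in Ahr-/- cells, and no erythroid marker passed.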
